A study of Arabidopsis thaliana with 24 samples.

Results

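The genes described here are those whose transcripts were lowered in Arabidopsis thaliana leaves 1 h after spraying with the herbicide 2,4-D and were still low at 72 h, in the wild type and in a peroxisomal mutant alike. A probe set, the group of short probes that reports 1 transcript on the array, was a member when its mean log2 expression changed by -1.25 or less from 0 h to 1 h and from 0 h to 72 h, in both genotypes. Of 22746 probe sets, 108 (0.475%) met all 4 conditions. Of these, 56 were paired with a single gene, 2 with several genes and 50 with none in the annotation used. The members were thus chosen by the log2 changes from 0 h at both times, so the size of their fall describes the choice and is not tested.

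Leaves came from soil-grown plants of the accession Col-0 (WT) and of the line acx1-2 in the same background (ACX), which is disrupted in ACX1, a gene for an acyl-CoA oxidase. The 2,4-D solution held 23 mM herbicide in 1% DMSO and 1% ethanol, and control plants received the solvents alone. Each genotype had 6 arrays named 0 h, 3 arrays 1 h after treatment and 3 arrays 72 h after treatment, 24 in all, and each replicate pooled leaves from at least 5 plants. The design names solvent controls at 1 h and 72 h with 3 replicates per condition, but the labels give only 0 h. They do not say when the 0 h leaves were taken or whether they are these solvent-sprayed controls. The herbicide, the spraying, the time of day and leaf age therefore cannot be told apart in a change against 0 h. No probe set is named for ACX1 in the annotation used, so the mutation was not checked in these data. Plant age is given only as leaves of similar size and stage.

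2,4-D is a synthetic auxin. Auxin binds receptors of the TIR1/AFB family, which mark Aux/IAA repressors for destruction and so release transcription of early auxin genes, while many other transcripts decline. A transcript can fall within an hour only if its existing copies decay quickly, and rapid decay is typical of transcripts for transcription factors, calcium sensors and other stress signalling proteins. ACX1 acts in peroxisomal beta-oxidation, a pathway that releases hydrogen peroxide and completes the synthesis of jasmonate, a wound and defence hormone.

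Before treatment the members were well expressed transcripts. Their mean log2 level over the 0 h arrays ran from 6.19 to 11.4 with a median of 8.61, against a median of 6.01 over all probe sets, and the median member stood at the 82.29th percentile. A fall of the required size needs room above the low end of the scale, so this position is partly fixed by the rule. The median log2 level over the members was 8.55 to 8.80 on the WT 0 h arrays, 6.76 to 6.95 on the WT 1 h arrays and 6.03 to 6.43 on the WT 72 h arrays. On the ACX arrays it was 8.15 to 8.85, 6.35 to 6.73 and 5.68 to 5.97 at the same times. The ranges of the 3 times did not overlap within either genotype. The rule fixes the gap from 0 h but not the one between 1 h and 72 h. Whether leaves held fewer cells of a type or less of a transcript per cell cannot be told apart in whole-leaf RNA.

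The 0 h arrays were not alike for these genes, which bears on every result below that uses them. The SD among the 6 arrays had a median of 0.34 over the members in WT and 0.44 in ACX, while over all probe sets it was 0.18 in both. In WT, replicate 3 stood apart, with an SD of 0.75 for the members' deviations from the group mean. The other 5 WT arrays had 0.25 to 0.31. Over all probe sets replicate 3 was also the widest in WT, with an SD of 0.35 against 0.17 to 0.23. In that replicate 14 members lay more than 1 log2 unit below the group mean and 7 above. In ACX, replicates 3 and 6 were low, with median deviations of -0.33 and -0.44. The same 12 members lay more than 1 log2 unit below the mean in both. Their SDs of deviations were 0.68 and 0.71 over the members and 0.31 and 0.28 over all probe sets. The other ACX arrays had 0.33 to 0.58 over the members and 0.2 to 0.26 over all probe sets. Outside these and WT replicate 3, as many as 13 members in a 0 h array lay more than 1 log2 unit from the mean. The deviations of ACX replicates 3 and 6 correlated across the 108 members at r = 0.9, those of replicates 1 and 4 at r = 0.91 and those of replicates 2 and 5 at r = 0.61. Over all probe sets these correlations were 0.46, 0.42 and -0.16. The points of each correlation come from the same arrays and share the group mean. The labels present all 6 as independent samples, so results are also given with these arrays left out or averaged. The WT 0 h arrays were not correlated or averaged in such pairs and enter the fits as separate samples.

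**Figure D1:**
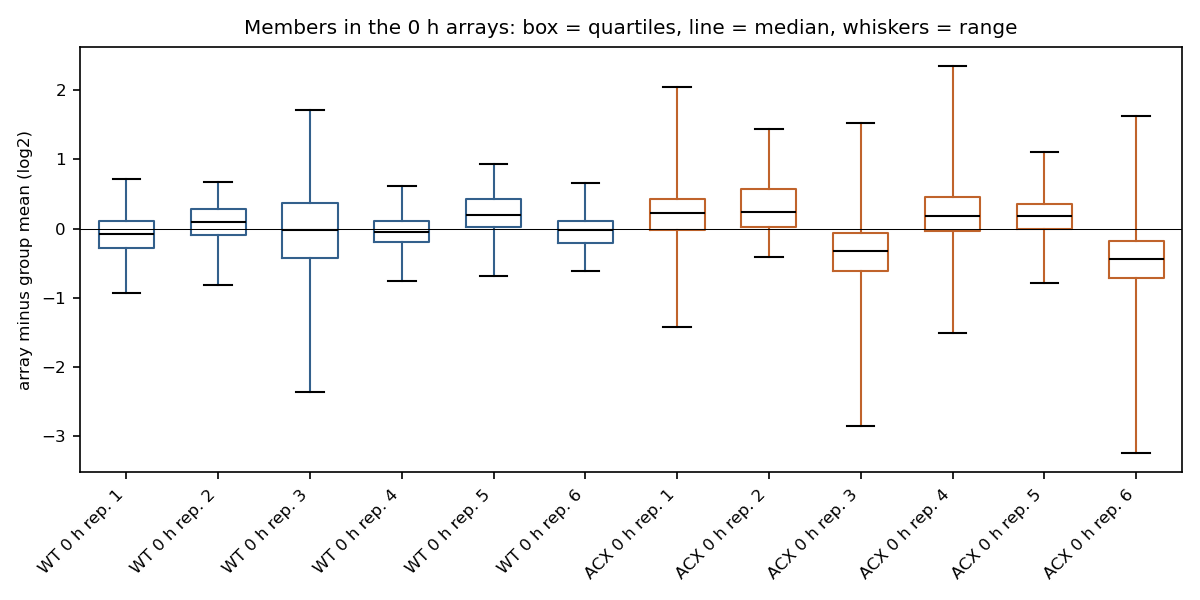
Deviation of each 0 h array from its genotype's 0 h mean, over the 108 members (vertical axis, log2 units). Boxes span the quartiles, lines mark the medians and whiskers reach the full range. WT replicate 3 has the widest box of the WT arrays, and ACX replicates 3 and 6 have the lowest medians (-0.33 and -0.44).

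AT3G19680, a member known here by its locus code and chosen after its values were seen, is an example of this spread. In ACX at 0 h its log2 level was 6.65 at the lowest, 10.59 at the median and 11.60 at the highest, and the low arrays were replicates 6 and 3. Its WT 0 h arrays ran from 9.64 to 10.34. After treatment it read 7.98, 7.74 and 7.66 in WT at 1 h, 7.93, 8.65 and 7.93 in WT at 72 h, 7.77, 7.95 and 7.97 in ACX at 1 h, and 8.22, 7.44 and 7.90 in ACX at 72 h. The treated arrays lay below every WT 0 h array, but in ACX they lay above the 2 low 0 h arrays.

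The change of the members from 0 h, given as a description, had a median of -1.66 in WT at 1 h (3.16-fold lower), and its range was -3.81 to -1.25. At 72 h in WT the median change was -2.18 (4.53-fold lower). In ACX the median change was -1.89 at 1 h (3.71-fold lower) and -2.55 at 72 h (5.86-fold lower, with a lowest value of -5.48). The medians over all probe sets were -0.02, -0.06, -0.02 and -0.06. The fall was larger at 72 h than at 1 h for 86 members in WT and 88 in ACX. Of all probe sets, 53.9% were lower at 72 h than at 1 h in WT and 54.6% in ACX. The fall was larger in ACX than in WT for 73 members at 1 h and 72 at 72 h. Of all probe sets, 47.6% had a lower change in ACX than in WT at 1 h and 49% at 72 h. A typical standard error of a member's change was 0.27.

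In a linear model with moderated variances fitted to all arrays (limma, called at an adjusted p under 0.05 over all probe sets), 107 of the 108 members were called lower at 1 h in WT, where 15.6% of all probe sets were called lower. The counts were 108 at 72 h in WT (27% of all probe sets), 107 at 1 h in ACX (12.7%) and 107 at 72 h in ACX (27%). The rule used these contrasts, and nothing is read from these counts. The treated arrays of a member all lay below every 0 h array of the same genotype for 105 members at 1 h in WT (15.1% of all probe sets), 104 at 72 h in WT (23.2%), 98 at 1 h in ACX (11.4%) and 106 at 72 h in ACX (23.7%). These are the values that chose the members, so the counts are a description. The members with overlap included AT3G19680, AT5G66520, AT5G66740 and AT1G65870.

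**Figure D2:**
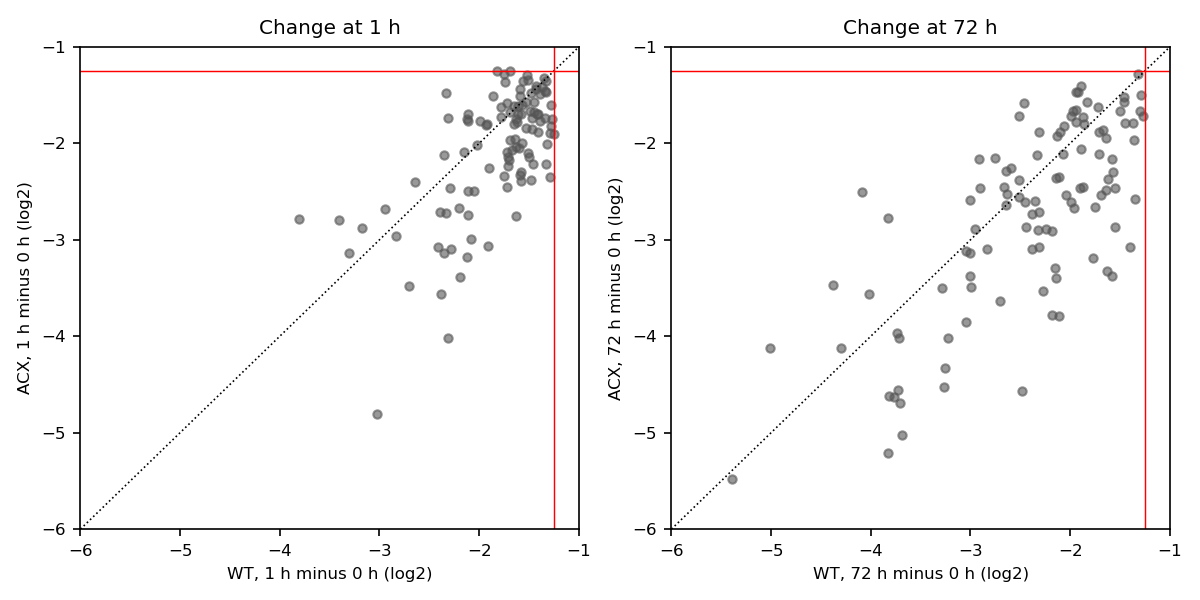
Change of each of the 108 members from 0 h in WT (horizontal axis) and in ACX (vertical axis), in log2 units, at 1 h on the left and at 72 h on the right. Red lines mark the threshold of -1.25 and the dotted line marks equal change. At 72 h 72 of 108 points lie below the dotted line, a larger fall in ACX. Of all probe sets, 49% had a lower change in ACX than in WT at 72 h.

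Fewer probe sets met the conditions in WT than in ACX. In WT alone 174 probe sets met both conditions, of which the members are 62.1%, and in ACX alone 306 did, of which the members are 35.3%. At 72 h 1071 probe sets met the threshold in both genotypes and at 1 h 252 did. Just inside the threshold were AT5G19730 and AT5G66520, each with a change of -1.25 in ACX at 1 h, AT5G56850 with -1.27 in WT at 72 h and AT3G60320 with -1.27 in WT at 1 h. Just outside were AT5G01015, whose change in ACX at 1 h rounds to -1.25 but lay above it, AT4G12980 with -1.24 in WT at 72 h, AT5G01790 with -1.21 in ACX at 1 h and AT2G34620 with -1.21 in WT at 1 h. In all, 168 probe sets met 3 of the 4 conditions.

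Among the members with a gene symbol or synonym, the transcription factor genes come first. Members that bear only a locus code were not sorted by product. ORA47 encodes an AP2/ERF factor that activates genes of jasmonate synthesis. Its log2 level in WT at 0 h was 10.90 at the lowest, 11.42 at the median and 11.92 at the highest, and it read 7.64, 8.03 and 8.56 at 1 h and 7.84, 8.15 and 7.12 at 72 h. In ACX it was 9.02 at the lowest, 10.89 at the median and 11.22 at the highest at 0 h, where the low arrays were replicates 6 and 3, and then 7.13, 6.86 and 7.70 at 1 h and 5.57, 5.29 and 5.18 at 72 h. No treated array overlapped the 0 h arrays of its genotype, and the ACX 72 h arrays were below all WT 72 h arrays. The changes from 0 h were -3.31 and -3.69 in WT at 1 h and 72 h, and -3.14 and -5.02 in ACX.

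WRKY22 encodes a WRKY transcription factor of immune signalling. In WT its log2 level was 7.45 at the lowest, 7.94 at the median and 8.49 at the highest at 0 h, then 6.54, 6.25 and 6.41 at 1 h and 6.49, 6.49 and 6.28 at 72 h. Its ACX arrays stood at 8.04 at the lowest, 8.83 at the median and 9.37 at the highest at 0 h, then 6.74, 6.51 and 7.13 at 1 h and 6.36, 5.61 and 5.79 at 72 h. The WT arrays of 1 h and 72 h overlapped, while the change in ACX went from -2.0 at 1 h to -2.87 at 72 h.

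WRKY53, whose WRKY factor regulates leaf senescence, was lower at 1 h than at 72 h in its group means. Its WT log2 levels were 8.55 at the lowest, 9.52 at the median and 9.92 at the highest at 0 h, then 7.89, 7.27 and 7.07 at 1 h and 8.27, 7.75 and 7.98 at 72 h. For ACX the level was 8.19 at the lowest, 9.78 at the median and 10.23 at the highest at 0 h, then 6.81, 6.76 and 7.30 at 1 h and 8.17, 7.75 and 7.07 at 72 h. The 1 h and 72 h arrays overlapped in both genotypes, and in ACX the highest 72 h array (8.17) lay just below the lowest 0 h array (8.19).

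CML23 encodes a calmodulin-like calcium sensor. The log2 level in WT was 6.49 at the lowest, 7.28 at the median and 7.87 at the highest at 0 h, then 6.17, 5.41 and 6.09 at 1 h and 5.44, 5.77 and 5.21 at 72 h. On the ACX arrays it was 6.98 at the lowest, 7.59 at the median and 8.30 at the highest at 0 h, then 5.79, 5.43 and 5.97 at 1 h and 6.42, 5.15 and 5.66 at 72 h. Its treated arrays did not overlap the 0 h arrays, and its changes (-1.29, -1.71, -1.89 and -1.88) were among the smaller ones.

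STOMAGEN encodes a secreted peptide of the EPF/EPFL family, made in the mesophyll, that promotes the formation of stomata in the epidermis. In WT its log2 level was 9.45 at the lowest, 9.79 at the median and 10.10 at the highest at 0 h, then 8.28, 8.64 and 8.38 at 1 h and 5.39, 7.16 and 5.65 at 72 h. In ACX it was 8.73 at the lowest, 9.94 at the median and 10.18 at the highest at 0 h, then 8.42, 8.11 and 7.90 at 1 h and 5.03, 5.09 and 4.61 at 72 h. The 3 times were separate in both genotypes, with changes from 0 h of -1.34 and then -3.71 in WT, and of -1.46 and then -4.69 in ACX.

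A pair of cell wall genes was among the members with a gene symbol. ATPMEPCRB, also called PME41, encodes a pectin methylesterase, an enzyme that removes methyl groups from wall pectin. Its WT log2 levels were 8.21 at the lowest, 8.44 at the median and 8.80 at the highest at 0 h, then 7.12, 5.55 and 5.71 at 1 h and 5.90, 5.26 and 4.57 at 72 h. Its ACX arrays stood at 7.93 at the lowest, 8.40 at the median and 9.38 at the highest at 0 h, then 5.94, 5.17 and 5.26 at 1 h and 4.76, 4.24 and 4.73 at 72 h. Every treated array was below every 0 h array, with changes of -2.35, -3.23, -3.14 and -4.02.

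TBL28 belongs to the trichome birefringence-like family, whose characterised members add acetyl groups to wall polysaccharides. Its log2 level in WT was 6.30 at the lowest, 6.78 at the median and 7.08 at the highest at 0 h, then 5.31, 5.37 and 5.14 at 1 h and 5.43, 5.21 and 5.16 at 72 h. For ACX the level was 6.12 at the lowest, 6.66 at the median and 6.99 at the highest at 0 h, then 5.51, 4.75 and 4.69 at 1 h and 5.18, 5.12 and 4.94 at 72 h. The 1 h and 72 h arrays overlapped in both genotypes, and the changes from 0 h lay between -1.45 and -1.67.

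AT5G52050 carries the synonym DTX50 and encodes a transporter of the MATE family that exports abscisic acid from cells. The log2 level in WT was 7.09 at the lowest, 8.53 at the median and 8.98 at the highest at 0 h, then 6.99, 6.40 and 6.82 at 1 h and 5.54, 6.21 and 6.03 at 72 h. On the ACX arrays it was 7.28 at the lowest, 8.55 at the median and 8.80 at the highest at 0 h, then 6.0, 6.05 and 7.09 at 1 h and 6.75, 6.72 and 6.34 at 72 h. Treated and 0 h arrays did not overlap, though the nearest WT arrays at 0 h and 1 h were 7.09 and 6.99. The 7.09 came from WT 0 h replicate 3, and the other WT 0 h arrays read 8.40 or more.

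**Figure D3:**
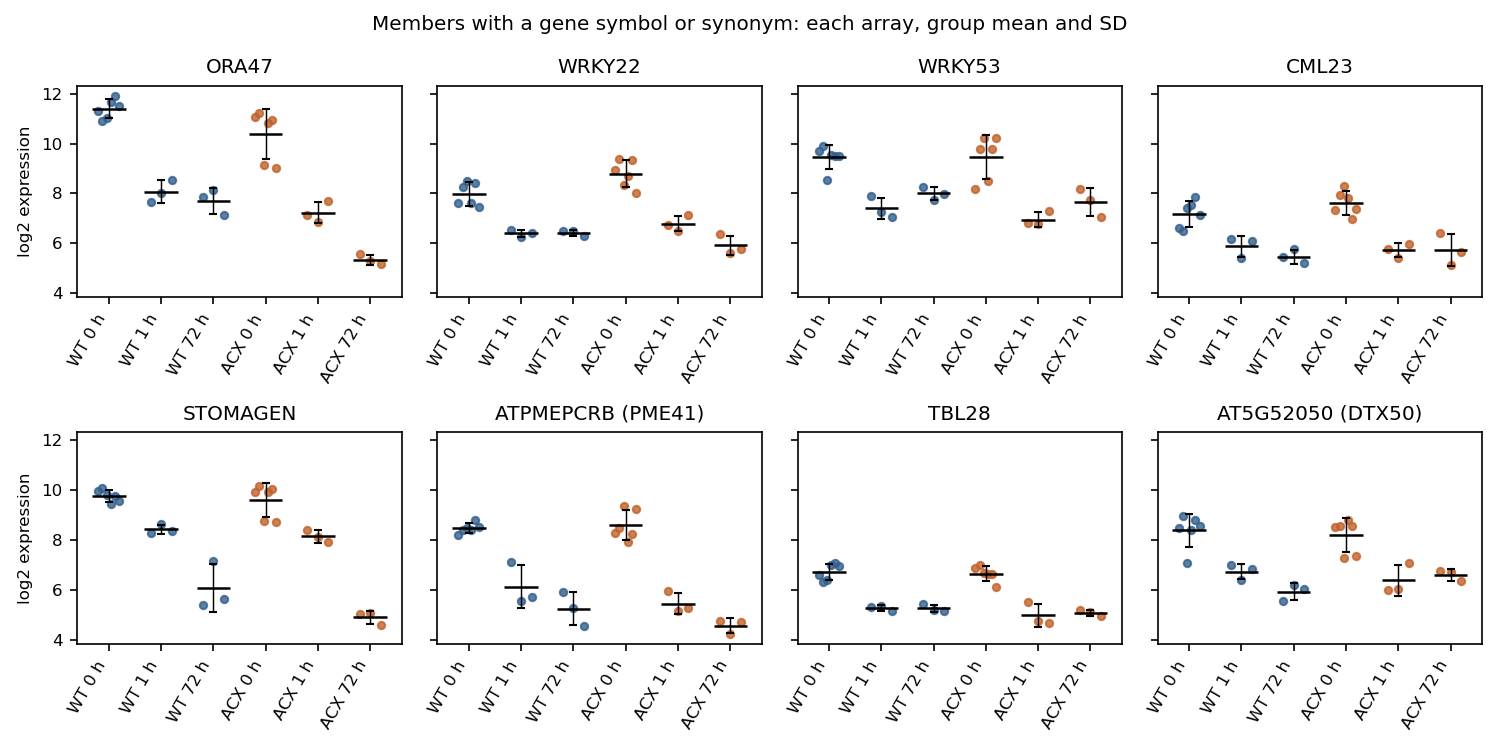
Log2 expression of the 8 members with a gene symbol or synonym in each of the 24 arrays (points), with the mean (line) and SD (bar) of each group. WT is blue and ACX orange. ORA47 and STOMAGEN reach their lowest levels on the ACX 72 h arrays (5.18 to 5.57 and 4.61 to 5.09), and the group means of WRKY53 are lower at 1 h than at 72 h.

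The other 48 members paired with a single gene bear only a locus code in the annotation used. A fall of at least 4-fold in all 4 contrasts was measured for 20 members, 11 of them with a single gene: ORA47, ATPMEPCRB, AT4G37240, AT5G17350, AT4G31000, AT4G29780, AT4G19530, AT1G20823, AT1G13650, AT3G10930 and AT1G33760. AT1G13650 had the largest change at 1 h in WT, with log2 levels of 9.05 at the lowest, 9.28 at the median and 9.95 at the highest at 0 h against 4.78, 5.64 and 6.20 at 1 h and 4.75, 5.65 and 5.37 at 72 h. In ACX it was 6.52 at the lowest, 8.88 at the median and 9.22 at the highest at 0 h, then 5.64, 5.66 and 5.10 at 1 h and 5.97, 5.81 and 5.45 at 72 h. Its change in WT was larger than in ACX at both times (-3.81 against -2.78, and -4.09 against -2.50), but neither genotype difference passed (1.02, adjusted p = 0.906 by limma, and 1.58, adjusted p = 0.191). Without ACX 0 h replicates 3 and 6, which read 6.96 and 6.52, these differences were 0.27 and 0.83.

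Low values limit how far a member could fall. At 72 h the group mean of 7 members in WT and 10 in ACX was below the lower quartile of those arrays (4.43 to 4.45 in WT and 4.42 to 4.46 in ACX). AT1G33760 was one of them in WT: it read 4.38, 4.52 and 4.17 in WT and 4.39, 4.50 and 4.42 in ACX at 72 h, from medians of 8.05 and 9.38 at 0 h. Values made with RMA compress differences near this floor. The annotated length of the 56 genes had a median of 2023.5 bases, against 2117 over 13436 genes.

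The first of the comparisons that the rule did not use sets 72 h against 1 h within each genotype, and asks whether the members went on falling. In WT 45 of the 108 members differed, 43 lower and 2 higher (41.7%, against 49.6% of all probe sets). In ACX 45 differed, 44 lower and 1 higher (41.7%, against 46.2% of all probe sets). The share called was thus below the background. By direction, 39.8% of members were lower in WT against 24.4% of all probe sets, and 40.7% in ACX against 22.6%. Higher calls made up 25.2% of all probe sets in WT and 23.6% in ACX. The median difference over the members was -0.54 in WT and -0.50 in ACX, and -0.04 over all probe sets in both. The 1 h and 72 h arrays also entered the rule, so this direction is not independent of the choice of members.

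The members lower at 72 h than at 1 h in both genotypes numbered 31, of which 16 have a single gene. Of all probe sets, 24.4% were called lower in WT and 22.6% in ACX, but the share lower in both is not given. The count is therefore a description. AT5G48490 had the largest difference, -3.45 in WT (SE 0.45, adjusted p = 1.74e-06 by limma with Benjamini-Hochberg adjustment) and -3.67 in ACX (SE 0.45, adjusted p = 7.66e-07). In WT its log2 level was 10.47 at the lowest, 10.87 at the median and 12.20 at the highest at 0 h, then 9.13, 8.80 and 9.35 at 1 h and 5.32, 6.67 and 4.93 at 72 h. Its ACX arrays stood at 10.24 at the lowest, 10.84 at the median and 10.98 at the highest at 0 h, then 9.92, 8.64 and 7.99 at 1 h and 5.14, 5.44 and 4.97 at 72 h. Its change from 0 h was -1.93 at 1 h and -5.39 at 72 h in WT, and -1.81 and -5.48 in ACX, so most of the fall came after the first hour.

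Among members with a single gene STOMAGEN followed, with -2.37 in WT (SE 0.39, adjusted p = 2.72e-05 by limma) and -3.23 in ACX (SE 0.39, adjusted p = 4.57e-07). AT1G54820 differed by -1.87 in WT (SE 0.25, adjusted p = 1.84e-06 by limma) and -1.81 in ACX (SE 0.25, adjusted p = 3.06e-06). Its log2 level in WT was 6.67, 6.89 and 6.80 at 1 h and 5.01, 5.03 and 4.71 at 72 h, and in ACX 6.77, 6.57 and 5.78 at 1 h and 4.73, 4.51 and 4.46 at 72 h, with no overlap between times. AT3G06770 differed by -1.38 in WT (adjusted p = 0.000459 by limma) and -1.58 in ACX (SE 0.29, adjusted p = 0.000113), from 7.05, 7.11 and 6.86 to 5.73, 5.95 and 5.21 in WT and from 7.22, 6.86 and 6.36 to 5.36, 5.28 and 5.05 in ACX. AT5G20740 had a smaller difference, -0.94 in WT (SE 0.14, adjusted p = 1.27e-05 by limma) and -0.64 in ACX (adjusted p = 0.001).

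Other genes lower at 72 h than at 1 h in both genotypes were AT4G29780 (-1.07 in WT and -1.15 in ACX), AT1G33760 (-1.54 and -1.17), AT4G28780 (-1.23 and -0.97), AT5G66520 (-0.95 and -1.38), AT2G34510 (-0.95 and -1.30) and AT1G80850 (-1.25 and -0.86). The remaining ones of the 16 were AT4G34220 (-0.75 and -0.98), AT3G08600 (-1.11 and -0.87), AT1G79720 (-0.60 and -0.84), AT1G12500 (-0.56 and -0.72) and AT4G19985 (-0.64 and -0.71). ORA47 did not pass in WT (-0.37, adjusted p = 0.535 by limma) and did in ACX (-1.88, adjusted p = 0.00277); the difference between the genotypes in this step was not tested. WRKY22 was lower in ACX (-0.87, adjusted p = 0.0285 by limma).

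The members higher at 72 h than at 1 h in WT were AT1G74450 and 253485_at, which the annotation pairs with no gene, and in ACX 253485_at. AT1G74450 read 7.78, 7.60 and 8.28 at 1 h and 8.85, 8.66 and 8.50 at 72 h in WT, a difference of 0.78 (SE 0.21, adjusted p = 0.00383 by limma), still below its 0 h arrays (9.92 at the lowest). In ACX it read 7.93, 7.79 and 7.88 at 1 h and 8.38, 8.14 and 8.10 at 72 h. The probe set 253485_at rose by 1.44 in WT (adjusted p = 0.000227) and by 1.43 in ACX (adjusted p = 0.00028), from 7.37, 6.75 and 6.24 to 8.40, 8.50 and 7.79 in WT and from 5.36, 6.35 and 6.66 to 7.63, 7.60 and 7.41 in ACX. The WT 0 h arrays of 253485_at ran from 9.40 to 10.24.

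**Figure D4:**
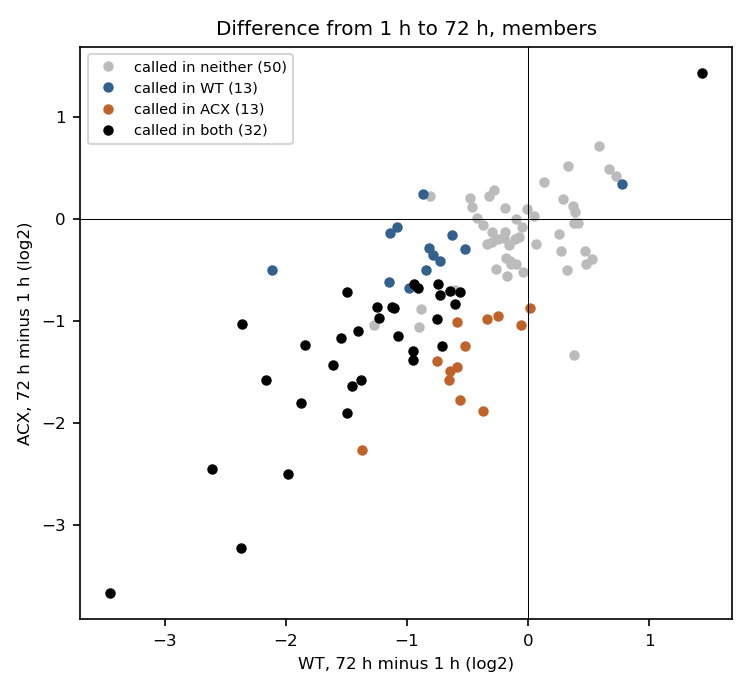
Difference between 72 h and 1 h in WT (horizontal axis) and ACX (vertical axis), in log2 units, for the 108 members. Colours give the comparisons in which a member was called by limma at an adjusted p of 0.05: both genotypes for 32, WT for 13, ACX for 13 and neither for 50. Of all probe sets, 49.6% were called in WT and 46.2% in ACX, and the share called in both is not given.

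The comparison of ACX with WT asks whether the mutant held these transcripts at other levels. The arrays compared at 0 h, 1 h and 72 h also entered the rule. The counts of members beside the shares of all probe sets are thus a description and not independent of the choice of members. At 0 h 19 of 108 members were called, 9 higher and 10 lower in ACX (17.6%, against 7.35% of all probe sets, of which 3.46% were higher and 3.89% lower). AT5G17350 was 1.22 log2 units higher in ACX (SE 0.22, adjusted p = 0.00182 by limma) and WRKY22 by 0.82 (SE 0.22, adjusted p = 0.0275). AT3G48460 was lower in ACX by 0.95 at 0 h, a log2 difference of -0.95 (SE 0.29, adjusted p = 0.0483 by limma). The WRKY22 call was lost on leaving out any of 5 single 0 h arrays (WT replicates 1, 4 or 6, or ACX replicates 2 or 5, adjusted p 0.0663 to 0.0764) and the AT3G48460 call on leaving out any of 19 of the 24 arrays (0.0527 to 0.118). AT3G48460 ran in WT at 0 h from 9.15 through a median of 10.88 to 11.18, and in ACX from 8.90 through 9.74 to 10.37, so the genotypes overlapped. It read 8.63, 8.67 and 8.21 in WT and 7.86, 8.08 and 7.82 in ACX at 1 h, and 8.43, 8.45 and 8.05 in WT and 8.40, 7.22 and 7.75 in ACX at 72 h.

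AT5G17350 ran in WT from 8.20 at the lowest through a median of 8.44 to 9.26 at 0 h, then 6.29, 5.99 and 6.37 at 1 h and 6.43, 6.37 and 5.33 at 72 h. In ACX it ran from 9.17 at the lowest through 9.64 to 10.58 at 0 h, then 5.58, 5.51 and 6.10 at 1 h and 5.46, 4.89 and 5.17 at 72 h. It started higher in ACX, with 1 WT array inside the ACX range, and read lower in ACX at 72 h in 2 of 3 arrays than in any WT array.

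These counts at 0 h moved with the arrays used. Leaving out ACX replicates 3 and 6 gave 16 members higher and 4 lower in ACX (4.84% of all probe sets called), and leaving out WT replicate 3 as well gave 26 higher and 12 lower (8.13%). Averaging ACX replicates 1 and 4, 2 and 5, and 3 and 6 left 2 higher and 1 lower (2.51%), with AT5G17350 still called (1.22, adjusted p = 0.0173 by limma) and WRKY22 not (0.82, adjusted p = 0.103). The count was 7 without WT replicate 1, 8 without WT replicate 4 or 6, 9 without ACX replicate 2, 12 without ACX replicate 3, 5 or 6, and 27 without WT replicate 3.

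At 1 h 0 of 108 members were called between genotypes by limma, against 0.0352% of all probe sets. At an unadjusted p of 0.05 13 were, and with array weights 2 passed after adjustment. The shares of all probe sets in these settings are not given, so nothing is read from either count. The 9 members that were higher in ACX at 0 h differed by -0.67 to 0.39 at 1 h, with 7 below 0, and by -0.87 to -0.01 at 72 h, with all 9 below 0. The 10 that were lower in ACX at 0 h differed by -1.18 to -0.12 at 1 h and by -1.30 to 0.44 at 72 h, and 8 of these were below 0 at 72 h. Most members lay below 0 at these times whatever their difference at 0 h. At 1 h 94 of 108 did, with a median of -0.29, and at 72 h 88 did, with a median of -0.35. Of all probe sets, 52.5% lay below 0 at 1 h and 50.9% at 72 h. These arrays also entered the rule, so the lean is a description and not independent of the choice of members.

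**Figure D5:**
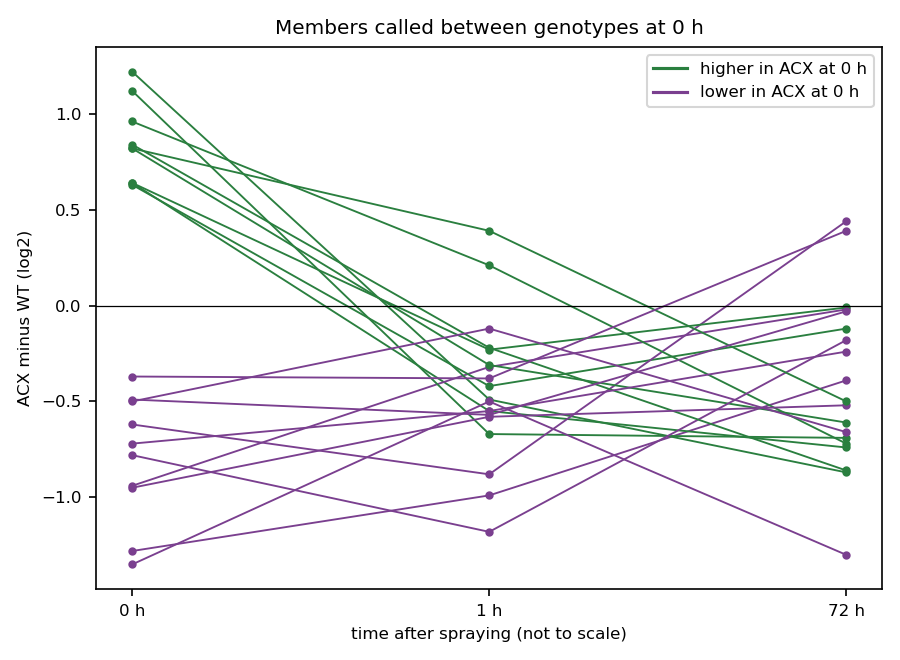
ACX minus WT in log2 units (vertical axis) at 0 h, 1 h and 72 h (horizontal axis, not to scale) for the 19 members called between genotypes at 0 h. Lines join the values of 1 member, with the 9 higher in ACX at 0 h in green and the 10 lower in purple. The green lines run from 0.63 to 1.22 at 0 h to values below 0 at 72 h.

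At 72 h 3 members were called, all lower in ACX (2.78%, against 2.79% of all probe sets, or 1.23% called lower). ORA47 differed by -2.36 (SE 0.48, adjusted p = 0.00838 by limma), with 5.18 to 5.57 in ACX against 7.12 to 8.15 in WT, and it no longer passed when WT 72 h replicate 2 was left out (-2.13, adjusted p = 0.0509). The difference of ORA47 was -1.02 at 0 h (adjusted p = 0.0715 by limma), and its 72 h change differed between the genotypes by -1.34 (adjusted p = 0.216), neither of which passed. AT2G04790 differed by -0.82 (SE 0.20, adjusted p = 0.0308 by limma), from 6.43, 6.03 and 5.57 in WT to 5.28, 5.29 and 5.01 in ACX. Its call was lost on leaving out WT 72 h replicate 1 or 2 or any ACX 72 h array (adjusted p 0.0507 to 0.223). The third was the unnamed probe set 261033_at, with -1.53 (SE 0.36, adjusted p = 0.0225 by limma), from 7.76, 7.92 and 7.26 in WT to 6.64, 5.61 and 6.09 in ACX, a call lost without WT 72 h replicate 1 or 2 or ACX 72 h replicate 2 or 3 (adjusted p 0.0884 to 0.103). The count was 0 without WT 72 h replicate 2, 1 without WT 72 h replicate 1 or ACX 72 h replicate 2 or 3, and 5 without WT 0 h replicate 3.

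The last comparison tests whether the change itself differed between genotypes. It is the difference between 2 of the changes that chose the members, so their counts and medians beside those of all probe sets are a description and not independent of the rule. For the 1 h change 1 member was called, 253485_at, whose fall was larger in ACX by a log2 difference of -1.79 (SE 0.35, adjusted p = 0.0367 by limma). That is 0.926% of the members, against 0.145% of all probe sets (0.0923% with the negative sign). At an unadjusted p of 0.05 16 members passed, but the share of all probe sets at that p is not given. The call was lost on leaving out any of 12 of the 24 arrays with adjusted p 0.0501 to 0.188 (WT 0 h replicates 1, 4 and 6, WT 1 h replicates 1 and 2, ACX 0 h replicates 1, 2, 3 and 5, ACX 1 h replicates 1 and 2, and ACX 72 h replicate 3), and with the ACX 0 h arrays averaged in pairs (adjusted p = 0.144). For the 72 h change 11 members were called, 9 with a larger and 2 with a smaller fall in ACX (10.2%, against 5.99% of all probe sets, of which 2.89% had a negative and 3.1% a positive difference). The median difference of the change over the members was -0.24 at 1 h and -0.26 at 72 h, and 0.01 over all probe sets at both times.

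The 72 h fall of AT5G17350 was larger in ACX by a difference of -2.10 (SE 0.38, adjusted p = 0.00262 by limma). WRKY22 had a difference of -1.32 (SE 0.39, adjusted p = 0.046 by limma) and AT1G18740 of -0.91 (SE 0.26, adjusted p = 0.0407). AT1G18740 ran in WT from 9.96 through a median of 10.33 to 10.80 at 0 h and read 9.01, 8.51 and 8.29 at 72 h, and in ACX from 10.32 through 10.76 to 10.80 at 0 h and 8.35, 7.90 and 7.75 at 72 h. Both of the last calls depended on single arrays: WRKY22 lost its call on leaving out any of 17 of the 24 arrays (adjusted p 0.0512 to 0.128) and AT1G18740 on any of 12 (0.0508 to 0.164).

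Of the 9 members with a larger 72 h fall in ACX, 7 were also called higher in ACX at 0 h, AT5G17350 and WRKY22 among them, and both members with a smaller fall were called lower at 0 h. Both comparisons share the 0 h arrays, and the 0 h difference enters the difference of the 72 h change with its sign reversed. Calls of opposite sign are thus tied by arithmetic. The share of all probe sets called in both comparisons is not given, so the overlap is a description only. Without ACX 0 h replicates 3 and 6 the 72 h change differed for 21 members with a larger and 2 with a smaller fall in ACX (6.34% of all probe sets), and without WT 0 h replicate 3 as well for 29 and 4 (8.82%). With the ACX 0 h arrays averaged in pairs it differed for 5 and 2 (4.16%), with AT5G17350 at -2.10 (adjusted p = 0.00719 by limma) and WRKY22 at -1.32 (adjusted p = 0.0669). The count was 17 without WT 0 h replicate 3, 6 without WT 72 h replicate 2 or ACX 72 h replicate 2, and 7 without WT 72 h replicate 1 or ACX 72 h replicate 3.

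Genes related to the members by function were followed through lists of known genes. The lists named 21 rapid stress regulators, 22 jasmonate, 9 calmodulin-like and touch, 23 XTH and 20 expansin or EXORDIUM genes. They also named 10 type-A cytokinin, 13 clock and 10 cold genes. Measured means found by name in the annotation used, where 8730 probe sets have no gene. A listed gene not found there may still be on the array, so the counts cover only the genes found. Of 4 measured rapid stress regulators, WRKY53 is a member, and the zinc finger gene STZ and the ubiquitin ligase genes PUB22 and PUB23 met the threshold in all contrasts except WT at 1 h, where they changed by -0.62, -0.26 and -1.01. Of these 4 genes 2 were called lower at 1 h in WT (15.6% of all probe sets), and all 4 in each of the other contrasts. Of the 2 measured jasmonate genes, OPCL1, which activates jasmonate precursors for beta-oxidation, changed by -0.43 (not called) in WT and by -0.97 in ACX at 1 h, and by -1.60 and -2.40 at 72 h.

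Of all probe sets, 15.6% and 27% were called lower in WT and 12.7% and 27% in ACX at 1 h and 72 h. Of 6 calmodulin-like and touch genes, CML23 was the only one to meet all 4 conditions. Of these 6, 1 was lower and 1 higher in WT at 1 h, 3 lower and 1 higher in WT at 72 h, 4 lower in ACX at 1 h, and 4 lower and 1 higher in ACX at 72 h. CML38 met the threshold in all contrasts except WT at 1 h (-0.90), while CML41 rose by 4.98 in WT and 2.71 in ACX at 72 h. Of 8 xyloglucan-modifying XTH genes 2 were lower at 1 h in each genotype and none higher, and at 72 h 4 were lower in each, with 2 higher in WT and 1 in ACX. Of 10 expansin and EXORDIUM genes 3 were lower and 1 higher at 1 h in WT, and 4 lower and 1 higher in ACX. At 72 h 7 of these 10 were lower and 2 higher in WT, and 6 lower and 3 higher in ACX. None of these 18 growth-related wall genes was a member, though XTH18, EXPB1, EXLA1 and EXO met 3 of the 4 conditions. Both measured type-A response regulators of cytokinin signalling were lower in WT at both times. ARR15 changed by -1.30 at 1 h and -2.68 at 72 h in WT and by -1.07 and -2.32 in ACX, and the -1.07 kept it out. RR16 changed by -1.23 and -1.58 in WT, but in ACX by 0.04 (adjusted p = 0.941 by limma) and 0.09 (adjusted p = 0.808). The 2 clock and 3 cold-regulated genes measured held no member.

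Cell type markers were few on this annotation. RCA, the mesophyll gene for Rubisco activase, had group means of 14.14 to 14.39 at all times. The highest 0 h level of any probe set was 14.46, so RCA lay near the top of the scale. How far a change can show at that level was not tested. RCA was called lower in ACX at 1 h (-0.21, adjusted p = 0.0115 by limma). SBPASE, a Calvin cycle gene and the other mesophyll marker measured, went from 13.40 at 0 h to 12.13 at 72 h in WT (adjusted p = 9.88e-12 by limma) and from 13.43 to 11.76 in ACX (adjusted p = 1.02e-13). The trichome regulator TRY went from 8.08 at 0 h to 5.23 at 72 h in WT and from 7.41 to 4.86 in ACX, and the guard cell gene FMA from 6.85 to 6.45 and from 6.95 to 6.07. No marker of phloem, xylem, epidermis, dividing cells or seed was named. The part of a change in cell types in the 72 h levels of the members was not tested.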

How the data were processed

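RNA from leaves was measured on 24 Affymetrix ATH1 arrays. Per the submitters' processing notes, the authors used RMA, from which the deposited log2 values come, and limma. Neither their versions nor a joint normalization of the arrays is stated in the sources used here. RMA as usually run corrects background, equalizes the distributions of the arrays, which hides a change common to most genes, and compresses low values. The number of arrays limits the precision. Of 22810 probe sets, 64 controls were left out. Annotation of 2016 gave 13513 probe sets a single gene, 503 several and 8730 none. All arrays were fitted in limma 3.58.1 (R 4.3.3) with a mean for each of 6 groups (18 residual degrees of freedom, 3.23 prior), two-sided, with Benjamini-Hochberg adjustment over all 22746 probe sets in each comparison and a threshold of 0.05. The 7 comparisons tested set ACX against WT at 0, 1 and 72 h, the change of ACX against that of WT at 1 and 72 h, and 72 h against 1 h in each genotype. The procedure was tested on simulated data.

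The members, the gene lists and the tests were chosen with earlier results of these data known. Genes named are members with a symbol or in a list, the called members with the smallest adjusted p in each comparison, and those beside the threshold; any other is said to be chosen after its values were seen or stands for a count. Alternatives were scaling, filters, prior, weights, groups fitted, replicate number as a block, subsets of 0 h arrays and leaving out each array. Those that leave out ACX 0 h replicates 3 and 6 or WT 0 h replicate 3, or average ACX 0 h arrays, were added after seeing the data. Sequences and genome coordinates were not used here.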

Additional observations from a re-analysis of the deposited data

Results flagged for a closer look

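Among 20 named members in the 0 h groups, 5 of 40 groups held an array far from the other 5 by Dixon's criterion, which chance meets in about 1 group in 20. In WT 0 h replicate 3 WRKY53 read 8.55 with the nearest array at 9.50, AT3G48460 read 9.15 with the nearest at 10.72, and AT5G19730 read 6.05 with the nearest at 7.60. In WT 0 h replicate 5 AT5G17350 read 9.26 with the nearest array at 8.49, and in ACX 0 h replicate 6 AT5G66520 read 5.69 with the nearest at 6.68. Of the 5, 3 were in WT 0 h replicate 3, the array with the widest spread of the members. The 20 do not cover every member named above, so the count of 5 is for these 20 only. Outside them, AT5G52050 read 7.09 in WT 0 h replicate 3 with the nearest array at 8.40. In the same replicate AT1G65870 read 7.27 with the nearest at 8.90, and AT1G13650 read 9.95 with the nearest at 9.34.

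The change at 72 h differed between the genotypes by a test of the difference itself for 3 named members: AT5G17350 (-2.10), WRKY22 (-1.32) and AT1G18740 (-0.91), each with the larger fall in ACX.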

How the results depend on the processing

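Each of 17 named results was refitted in 32 ways, 24 of them leaving out 1 array; of these 544 refits 75 lost the call and 0 changed direction. The results for AT5G48490, STOMAGEN, AT1G54820, AT5G20740, AT3G06770 and AT1G74450 between 1 h and 72 h, and the 72 h genotype difference of AT5G17350, were called in 32 of 32 refits each, and AT5G17350 at 0 h in 31. A 2-fold minimum, not among these refits, would keep 11 of the 17 and drop AT1G74450 and AT5G20740 in WT, WRKY22 and AT3G48460 at 0 h, AT2G04790 and AT1G18740. With one array left out, the rule found 99 to 120 probe sets, and the members called numbered 7 to 27 (ACX against WT at 0 h), 0 to 1 (1 h), 0 to 5 (72 h), 0 to 2 and 6 to 17 (genotype difference of the 1 h and 72 h change), and 34 to 47 and 36 to 46 (72 h against 1 h in WT and ACX). A threshold of -1 gave 217 probe sets and -1.5 gave 61. Array centring gave 106 (99 of the members) and quantile normalization 109 (103). With 0 h replicates 1 to 3 alone the counts were 4 (0 h), 0 (1 h change) and 7 (72 h change), and with replicates 4 to 6 alone 1 (1 h), 5 (72 h) and 2 (1 h change). Array weights gave 2 (1 h), 11 (72 h), 4 (1 h change) and 22 (72 h change). Fitting only the groups compared gave 9 (0 h), 0 (72 h) and 0 (1 h change). In that fit 49 passed an unadjusted p of 0.05 at 72 h, and the share of all probe sets at that p is not given. Leaving out the dimmest 50% of the probe sets gave 2 (1 h change), and a 2-fold minimum 4 (0 h), 25 (72 h against 1 h in WT) and 29 (in ACX). With ACX 0 h replicates 3 and 6 left out the counts were 5 (1 h change) and 23 (72 h change), with WT 0 h replicate 3 left out as well 38 (0 h), 7 and 33, and with ACX 0 h arrays averaged in pairs 3 (0 h), 0 and 7. The cause of these moves was not tested. Same-numbered arrays of different groups correlated over 0.1 in 10 of 48 pairs (-0.51 to 0.36). Whether the numbers mark a shared harvest or block cannot be told from these values, and the main fit did not pair samples. With the replicate block the 1 h change had 0 calls and the 72 h change 9, and AT1G18740 was not called (-0.91, adjusted p = 0.0606 by limma).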
